A study of Mus musculus with 6 samples.

Results

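Cysteine, taurine and glutathione metabolism is described here through 9 genes in 3T3-L1 adipocytes with and without a knockdown of RBMS1. The genes were Cdo1, Csad, Cth, Cbs, Gclc, Gclm, Gss, Slc7a11 and Slc6a6, taken by symbol from the 45706 genes of the count table. They were selected on measured values of the same samples, because Cdo1 was lower in the knockdown, so its difference is given as a description without a test. Of the 9 genes, 8 had enough counts to be tested among 11440 genes, and Cbs did not.

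3T3-L1 is a mouse embryonic fibroblast line that turns into fat cells when given hormones, and RBMS1 is a protein that binds RNA. All 6 cultures received an adipogenic cocktail of IBMX, insulin, dexamethasone and rosiglitazone and were harvested at day 7. The 3 scrambled control cultures carried a lentiviral shRNA without a target, and the 3 RBMS1 knockdown cultures carried an Rbms1 shRNA. Both lines were made stable with puromycin. Whether the 3 cultures of a group came from separate transductions is not given in the sources used here, so p-values measure the spread between these cultures. The study asked which adipocyte transcripts differ when RBMS1 is reduced.

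Cysteine enters cells as cystine through the exchanger xCT, or is made from methionine by transsulfuration. It then flows either to glutathione, the main thiol antioxidant, or to cysteine sulfinate and on to taurine. Cysteine dioxygenase, the product of Cdo1, opens the taurine branch and is abundant in liver and in fat.

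Counts per gene were estimated from ribosomal RNA-depleted libraries that held 3142695 to 11073098 counts. Levels are given in CPM, which are counts relative to the TMM-corrected library size, and 3 counts correspond to 0.220 to 1.49 CPM depending on the library, a limit for counting error only. Genes derived from ribosomal RNA took 43.0% of scrambled control replicate 2, the shallowest library, and 8.12% to 17.8% of the others. A gene was called at an adjusted p of 0.1 or less in the quasi-likelihood test of edgeR, adjusted by Benjamini-Hochberg over all tested genes. This gave 140 genes (1.22% of those tested), of which 104 were lower in the knockdown (0.909%), while 12.4% of the tested genes had an unadjusted p under 0.05. DESeq2 at the same threshold called 430 genes (3.20% of those it adjusted). The median log2 fold change over all tested genes was 0.0044, and every fold change below is knockdown over control. Rbms1, the targeted gene, was at 113, 102 and 99.6 CPM in the control replicates 1, 2 and 3 and at 49.2, 61.4 and 84.0 CPM in the knockdown replicates 1, 2 and 3. Every knockdown library was below every control, as for 9.55% of all tested genes. The study showed the knockdown at the protein level by immunoblot. For the Rbms1 transcript, the log2 fold change was -0.69 with a standard error of 0.20 and an adjusted p of 0.185. Without knockdown replicate 3 it was -0.92 and called (adjusted p = 0.0708), and with library sizes alone it was -0.31 (adjusted p = 0.572).

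Promoters were available for 5 of the 9 genes in the RefSeq table used here (GRCm38.p6, 250 bases before to 50 bases after each start). Those of Slc7a11 and Gclm are shown because they held a match to the core of a response element known for genes of cystine uptake or glutathione synthesis. The first lies at chr3:50443564-50443863 on the minus strand and the second at chr3:122245307-122245606 on the plus strand, and capitals mark the matches.
Slc7a11: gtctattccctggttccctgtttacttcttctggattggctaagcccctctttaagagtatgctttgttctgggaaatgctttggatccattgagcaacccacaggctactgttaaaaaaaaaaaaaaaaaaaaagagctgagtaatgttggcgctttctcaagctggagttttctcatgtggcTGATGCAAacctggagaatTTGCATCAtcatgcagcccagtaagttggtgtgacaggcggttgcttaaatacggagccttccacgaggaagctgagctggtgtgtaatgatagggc
Gclm: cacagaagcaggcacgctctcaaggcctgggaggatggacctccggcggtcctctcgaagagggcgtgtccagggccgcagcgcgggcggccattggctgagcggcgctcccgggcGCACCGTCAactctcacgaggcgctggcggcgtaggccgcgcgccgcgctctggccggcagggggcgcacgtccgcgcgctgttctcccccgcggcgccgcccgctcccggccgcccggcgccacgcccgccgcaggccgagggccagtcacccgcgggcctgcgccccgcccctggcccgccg
In the Slc7a11 window, the core of the amino acid response element that ATF4 binds (TGATGNAA, searched on both strands) was found 2 times, from -66 to -59 on the gene's strand and from -47 to -40 on the other strand, counted from the start site. In the Gclm window, the core of the antioxidant response element that NRF2 binds (TGACNNNGC, both strands) was found 1 time, from -134 to -126 on the other strand. Of 32851 mouse promoter windows of this length, 3.97% held the first motif and 12.4% the second. The windows of Gss, Csad and Cbs held neither, which says only that these letters are not in those windows.

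The taurine branch held Cdo1, the gene the set was selected on. Cdo1 (ENSMUSG00000033022, chromosome 18 from 46713193 to 46728395), which oxidizes cysteine to cysteine sulfinate, was at 197, 258 and 223 CPM in the control replicates and at 98.8, 73.2 and 61.6 CPM in the knockdown replicates. Every knockdown library was below the lowest control, and knockdown replicate 1 was the highest of its group. The log2 fold change of -1.54 had a standard error of 0.20, a level 0.345 times that of the controls. Positions here and below are on GRCm38. Among the 22 tested genes within 5 Mb of the gene, the median log2 fold change was 0.080, and 0 of them lay lower in all knockdown libraries than in all controls, against 9.55% of all tested genes.

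**Figure D1:**
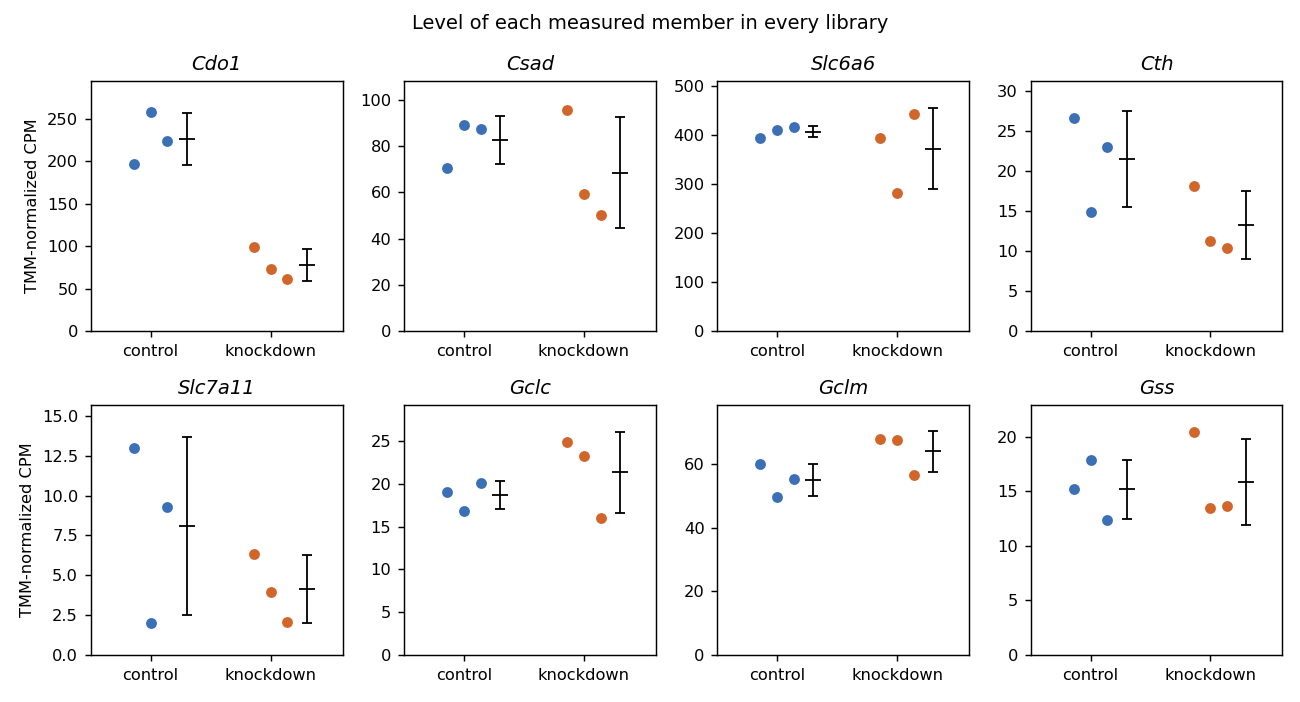
Level of each of the 8 tested genes in TMM-normalized CPM (vertical axes, each from 0) in the 3 scrambled control (blue) and 3 RBMS1 knockdown (orange) libraries, with the mean and SD of 3 libraries in black. The Cdo1 points separate completely, from 197 to 258 CPM against 61.6 to 98.8 CPM, while the points of the other 7 genes overlap between the groups.

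The next enzyme of the branch was not called. Csad (ENSMUSG00000023044, chromosome 15 from 102176999 to 102204724), which decarboxylates cysteine sulfinate to hypotaurine, was at 70.7, 89.3 and 87.6 CPM in the controls and at 95.7, 59.4 and 50.3 CPM in the knockdown. Knockdown replicate 1 was above all controls and the other two were below them. The log2 fold change was -0.27 (95% interval -0.80 to 0.26, adjusted p = 0.702), and without TMM factors, which lifts the median of all genes to 0.37, it was 0.12. It was -0.58 without knockdown replicate 1, -0.16 without knockdown replicate 2 and -0.08 without knockdown replicate 3. Csad shares 278 exonic bases with Zfp740 on the opposite strand, and the strand setting of the counting is not given in the sources used here. Slc6a6 (ENSMUSG00000030096, chromosome 6 from 91684053 to 91759066), the taurine transporter, had the highest CPM of the 9 genes, at 395, 411 and 417 in the controls and 394, 282 and 443 in the knockdown. The controls lay within 1.06 times of each other, and the knockdown libraries lay on both sides of them. Its log2 fold change was -0.13 (95% interval -0.55 to 0.30, adjusted p = 0.835), and it was 0.052 without knockdown replicate 2 and 0.26 without TMM factors. Slc6a6 shares 117 exonic bases with Gm44981 on the opposite strand.

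Within each library, Cdo1 counts were 2.78, 2.88 and 2.55 times those of Csad in the controls and 1.03, 1.23 and 1.22 times in the knockdown. The ratio of Cdo1 to Slc6a6 was 0.497, 0.626 and 0.535 in the controls and 0.251, 0.260 and 0.139 in the knockdown. These ratios do not depend on how the libraries are scaled, and the groups did not overlap in either. They carry the selected difference of Cdo1 and were not tested.

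**Figure D2:**
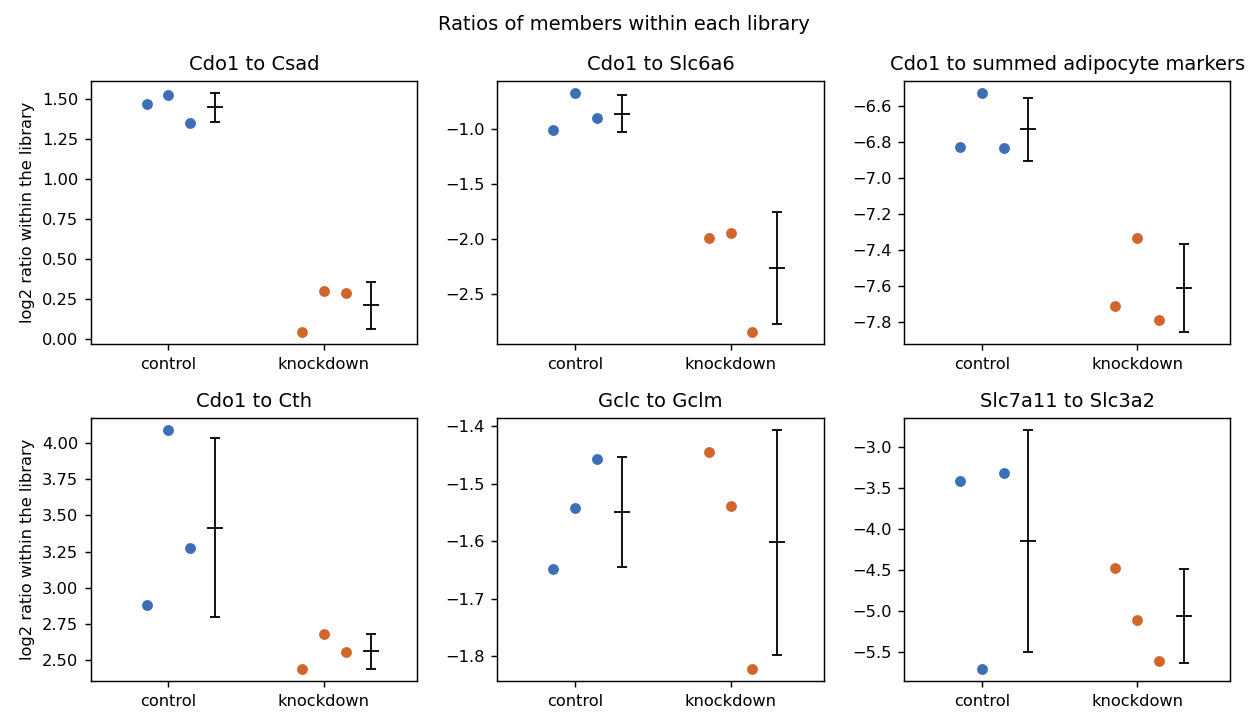
Log2 ratios of counts of 2 genes within each library (vertical axes) for 3 scrambled control (blue) and 3 RBMS1 knockdown (orange) libraries, with mean and SD in black; for the adipocyte markers the denominator is the summed CPM of 12 genes. The 4 ratios with Cdo1 as numerator separate the groups, while Gclc to Gclm and Slc7a11 to Slc3a2 overlap.

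Of the transsulfuration enzymes, Cth was measured and Cbs was near 0. Cbs (ENSMUSG00000024039, chromosome 17 from 31608894 to 31637238), the first enzyme of that route, had counts of 1, 0 and 0 in the controls and 0, 1 and 0 in the knockdown, so no fold change is given, and its level was at most that allowed by 3 counts in each library. Cth (ENSMUSG00000028179, chromosome 3 from 157894248 to 157925077), the cystathionine gamma-lyase that releases cysteine, was at 26.6, 14.9 and 23.1 CPM in the controls and at 18.1, 11.3 and 10.4 CPM in the knockdown. Knockdown replicate 1 was above control replicate 2, so the groups overlapped. The log2 fold change was -0.71 (95% interval -1.36 to -0.07), with an unadjusted p of 0.0335 and an adjusted p of 0.350 in edgeR's model. Without knockdown replicate 1 it was -0.99 with an adjusted p of 0.0894, and this was the only alternative in which Cth was called.

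The cystine importer was low and varied between libraries. Slc7a11 (ENSMUSG00000027737, chromosome 3 from 49892526 to 50443614), the light chain of xCT, was at 13.0, 1.99 and 9.29 CPM in the controls, from 81, 4 and 54 counts, and at 6.33, 3.97 and 2.06 CPM in the knockdown, from 44, 34 and 28 counts. The lowest library was control replicate 2, and the controls spread over a 6.54-fold range. The log2 fold change was -1.07 (95% interval -2.36 to 0.21, adjusted p = 0.489), from -1.50 without knockdown replicate 1 to -0.60 without control replicate 1. Slc3a2, the heavy chain shared with other amino acid transporters, was at 138, 116 and 92.9 CPM in the controls and at 141, 139 and 102 CPM in the knockdown. The log2 ratio of the light to the heavy chain was -4.14 ± 1.36 (SD, n = 3) on average over the control libraries and -5.06 ± 0.57 (SD, n = 3) over the knockdown libraries, a difference of -0.92 (two-sided exact permutation test, p = 0.4, adjusted p = 0.8 over 2 ratios). The smallest p that 3 against 3 libraries allow is 0.1.

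Slc7a11 lies at the edge of a stretch in which most genes were lower in the knockdown. Of the 91 tested genes with a first base before 50 Mb on this chromosome, Slc7a11 included, 82 (90.1%) had a log2 fold change below 0, with a median of -0.64. Of the 493 genes after 50 Mb, 61.9% were below 0, with a median of -0.083, against 49.6% of all tested genes. The nearest tested gene before Slc7a11, 0.135 Mb away, was Pcdh18, with a log2 fold change of -0.16. The next before it, Sclt1 and D3Ertd751e, lay 8.15 and 8.09 Mb away and had -0.64 and -1.14. The nearest after it, Noct, Gm38357 and Elf2, lay 0.781, 0.788 and 0.809 Mb away, with log2 fold changes of -0.36, -0.79 and -0.06. Within 5 Mb of Slc7a11 on either side, 25 tested genes had a median log2 fold change of -0.15, against -0.13 over all 583 tested genes of the chromosome other than Slc7a11. None of these 6 neighbours was called, and their smallest adjusted p was 0.169. With the median of each chromosome removed and chromosome 3 parted at 50 Mb, the log2 fold change of Slc7a11, counted by its first base with the genes before 50 Mb, was -0.48, and with the part at 55 Mb it was -0.58. Counted by its centre with the genes after 50 Mb, it was -0.99. What part the stretch has in the Slc7a11 values was not tested. Cth and Gclm lie far along the same chromosome, at 157894248 and 122245557.

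**Figure D3:**
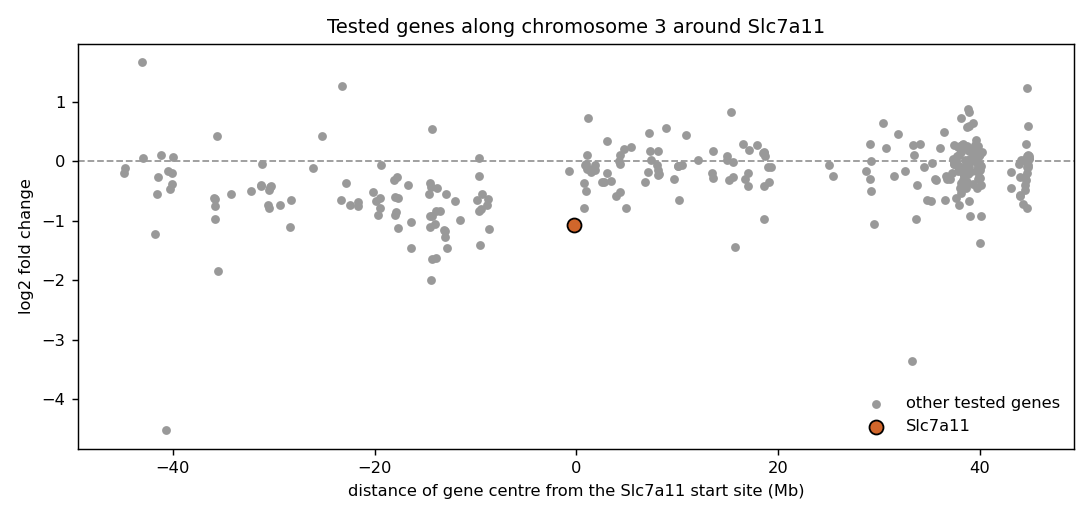
Log2 fold change of tested genes (knockdown over control, vertical axis) against the distance of each gene's centre from the Slc7a11 start site on chromosome 3 in Mb (horizontal axis); the dashed line is the median of all tested genes. Most grey points on the left lie below the line, the points on the right scatter around it, and Slc7a11 (orange) lies at the border with -1.07. Of the 91 genes before 50 Mb, Slc7a11 included, 82 are below 0.

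Glutathione synthesis was measured through Gclc, Gclm and Gss. Gclc (ENSMUSG00000032350, chromosome 9 from 77754535 to 77794485), the catalytic subunit of glutamate-cysteine ligase, was at 19.1, 16.9 and 20.1 CPM in the controls and 24.9, 23.3 and 16.0 CPM in the knockdown. The knockdown held both the highest and the lowest values, and the log2 fold change was 0.19 (95% interval -0.30 to 0.67, adjusted p = 0.782). It was 0.07 without knockdown replicate 1, 0.12 without control replicate 2 and 0.36 without knockdown replicate 3. Gclm (ENSMUSG00000028124, chromosome 3 from 122245557 to 122270732), the modifier subunit, was at 59.9, 49.6 and 55.4 CPM in the controls and 67.9, 67.7 and 56.7 CPM in the knockdown. Knockdown replicates 1 and 2 were above all controls and replicate 3 was not, with a log2 fold change of 0.22 (95% interval -0.13 to 0.57, adjusted p = 0.617). The annotated pseudogene Gm6061 shares 244 exonic bases with Gclm on the same strand, so reads may have been split between them. Gm17494 shares 296 exonic bases with Gclm on the opposite strand.

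The ratio of Gclc to Gclm differed between the groups by less than its spread. Its log2 value was -1.55 ± 0.096 (SD, n = 3) on average over the control libraries and -1.60 ± 0.196 (SD, n = 3) over the knockdown libraries, a difference of -0.053 (two-sided exact permutation test, p = 0.9, adjusted p = 0.9). Gss (ENSMUSG00000027610, chromosome 2 from 155563181 to 155592810), glutathione synthetase, was at 15.2, 17.9 and 12.4 CPM in the controls and 20.4, 13.4 and 13.7 CPM in the knockdown. Its values interleaved, and the log2 fold change of 0.07 (95% interval -0.48 to 0.63, adjusted p = 0.937) was -0.058 without control replicate 3 and -0.14 without knockdown replicate 1. Gss shares 395 exonic bases with Acss2, 385 with Gssos2 and 322 with Gssos1, all on the opposite strand.

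Beside Cdo1, 0 of the 7 other tested genes were called by edgeR, DESeq2 or limma-voom, and 1, Cth, had an unadjusted p under 0.05, near the 12.4% of all tested genes. Of these 7, 4 had a log2 fold change below 0, with a median of -0.13 and a range from -1.07 to 0.22, against a median of 0.0044 over all tested genes. None of the 7 had groups that did not overlap, against 18.5% of all tested genes (9.55% lower and 8.96% higher in the knockdown). The intervals of Gclc, Gclm, Csad and Slc6a6 reached from -0.80 to 0.67 at the widest, which leaves room for changes of that size.

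**Figure D4:**
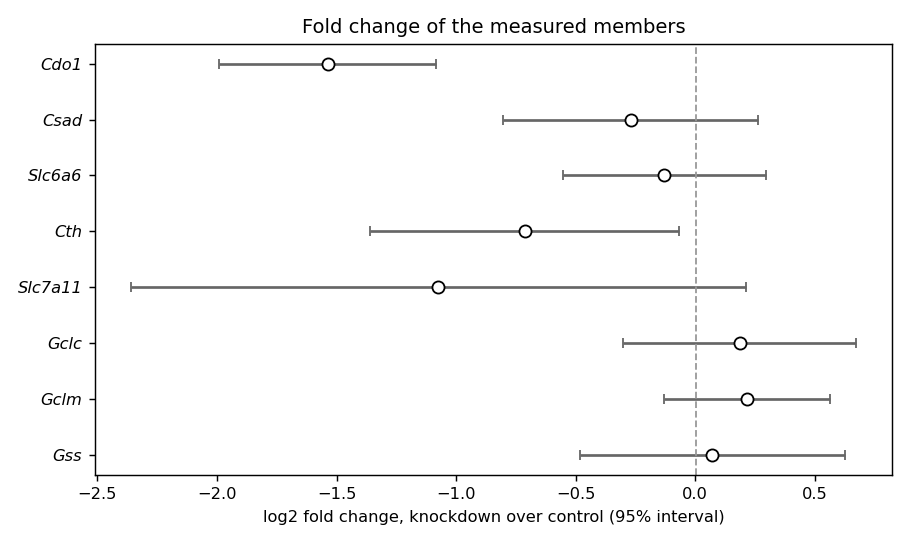
Log2 fold change (knockdown over control) with its 95% interval from edgeR for the 8 tested genes, where the dashed line is the median of all tested genes. Cdo1, the gene the group was selected on, lies at -1.54, and its interval is drawn as a description, not as a test. For the genes not selected on, the interval of Cth (-1.36 to -0.07, not adjusted for the number of genes) is the only one without 0.

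Per kilobase of annotated exons, Cdo1 was the most abundant of the 9 transcripts in the controls, at 137 ± 18.6 CPM per kb (SD, n = 3). Slc6a6 followed at 48.2 ± 1.36, Csad at 21.5 ± 2.69, Gclm at 8.74 ± 0.82, Cth at 7.71 ± 2.15, Gclc at 4.96 ± 0.44, Gss at 2.56 ± 0.46 and Slc7a11 at 0.581 ± 0.402 CPM per kb. The ranges of Gclm and Cth overlapped, as did those of Cth and Gclc, and the other neighbours in this order did not. In the knockdown, Cdo1 was at 47.3 ± 11.6 and Slc6a6 at 44.1 ± 9.80 CPM per kb, and their ranges overlapped. With the longest annotated transcript as the length, Slc6a6 came before Cdo1 in the knockdown and Cth before Gclm in the controls.

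The genes around this pathway were read from 6 lists written with earlier results of these data known. The counts below stand against 1.22% of all tested genes called by edgeR, 3.20% by DESeq2 and 12.4% at an unadjusted p under 0.05. In the methionine cycle and serine list, 13 of 17 genes were tested and 0 were called by edgeR or DESeq2, with 1 at an unadjusted p under 0.05 and a median log2 fold change of 0.011. Its most abundant genes were Mat2a, which makes S-adenosylmethionine (245 to 260 CPM in controls, 179 to 323 in knockdown), Psat1, a serine synthesis enzyme (226 to 243 against 160 to 394), and Ahcyl2 (97.8 to 130 against 135 to 272, adjusted p = 0.291). In the list of cysteine breakdown, sulfide and taurine, 9 of 11 genes were tested and edgeR called 0, DESeq2 called 1 (Got1) and 2 had an unadjusted p under 0.05, with a median of 0.083. Its most abundant genes were Got2, the mitochondrial aspartate aminotransferase, with a log2 fold change of -0.05, Sqor, the sulfide oxidase, with -0.28, and Mpst, which makes sulfide from mercaptopyruvate, with -0.23. In the transport list, 5 of 9 genes were tested, 0 were called by edgeR or DESeq2 and 0 had an unadjusted p under 0.05, with a median of 0.14. Slc1a5 and Slc1a4, neutral amino acid transporters, had log2 fold changes of -0.27 and 0.25, and Slc3a2 had 0.14.

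Glutathione turnover and conjugation held 3 genes called by edgeR among 32 tested, against 1.22% of all tested genes. EdgeR called 0 genes in each of the other pathway lists. All the lists were written with earlier results of these data known, and only the lists with calls were pooled here. The share of 3 in 32 is therefore a description, not a test. Oplah, the 5-oxoprolinase that returns glutamate from the glutathione cycle, was at 70.0, 62.0 and 50.9 CPM in the controls and at 26.2, 23.8 and 15.3 CPM in the knockdown. Every knockdown library was below every control, and the difference was -1.49 on the log2 scale (standard error 0.23, adjusted p = 0.0333). The other 16 tested genes of its list of 19 were not called, and the list's median was -0.045. In this list 3 of 17 tested genes were lower in every knockdown library, against 9.55% of all tested genes. Also 3 had an unadjusted p under 0.05 in edgeR, against 12.4%. Its most abundant genes, the mitochondrial glutathione carrier Slc25a39 and the exporters Abcc1 and Abcc4, had log2 fold changes of -0.04, -0.19 and -0.02.

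Gstk1, a glutathione S-transferase of mitochondria and peroxisomes, was at 18.9, 18.9 and 23.2 CPM in the controls and at 6.61, 3.86 and 3.45 CPM in the knockdown. The difference was -2.15 on the log2 scale (standard error 0.29, adjusted p = 0.0229). Gsto1, the omega-class enzyme, rose instead, from 57.5, 49.1 and 44.0 CPM in the controls to 84.1, 97.5 and 78.0 CPM in the knockdown, a difference of 0.78 on the log2 scale (standard error 0.17, adjusted p = 0.0905). In both genes the groups did not overlap. This held for 5 of the 15 tested transferases, 4 lower and 1 higher in the knockdown, against 18.5% of all tested genes. An unadjusted p under 0.05 in edgeR was found for 4 of the 15, against 12.4% of all tested genes. DESeq2 called these 2 and Gstm1, which had a log2 fold change of -0.85 in edgeR, and limma-voom called Gstk1 alone. Of the 24 glutathione S-transferase genes 15 were tested, 10 had a log2 fold change below 0 and the median was -0.25. The most abundant were Mgst1, Gstz1 and Gstp1, with log2 fold changes of -0.26, -0.27 and -0.17, and reads of Gstp1 may be shared with its near copy Gstp2. With each library left out in turn, the largest adjusted p was 0.152 for Oplah and 0.118 for Gstk1, and 0.333 for Gsto1. Each of the 3 lost its call without control replicate 1, control replicate 2 or knockdown replicate 2, and Gstk1 and Gsto1 also without control replicate 3.

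NRF2 and ATF4 are transcription factors of oxidative and amino acid stress, known to control Gclm, Gclc and Slc7a11. All 19 genes in the list of their regulators and targets were tested. The edgeR test called 0 of them, DESeq2 called 1 (Atf3), and 2 had an unadjusted p under 0.05, against 1.22%, 3.20% and 12.4% of all tested genes, with a median log2 fold change of -0.093. Atf3 was higher in every knockdown library, with a log2 fold change of 1.48 (adjusted p = 0.246 in edgeR). Nfe2l2, the gene of NRF2, was lower in every knockdown library, with -0.21 (adjusted p = 0.620). Atf4 overlapped between the groups, with -0.19 (adjusted p = 0.760). Groups did not overlap in 4 of the 19 genes, 2 lower and 2 higher, against 18.5% of all tested genes. Nfe2l1, a relative of NRF2, was at 446 to 482 CPM in the controls and 448 to 642 in the knockdown. Gpx4, the glutathione peroxidase of lipid peroxides, had a log2 fold change of -0.33 (adjusted p = 0.397), and Hmox1, heme oxygenase 1, had -0.17 (adjusted p = 0.875).

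**Figure D5:**
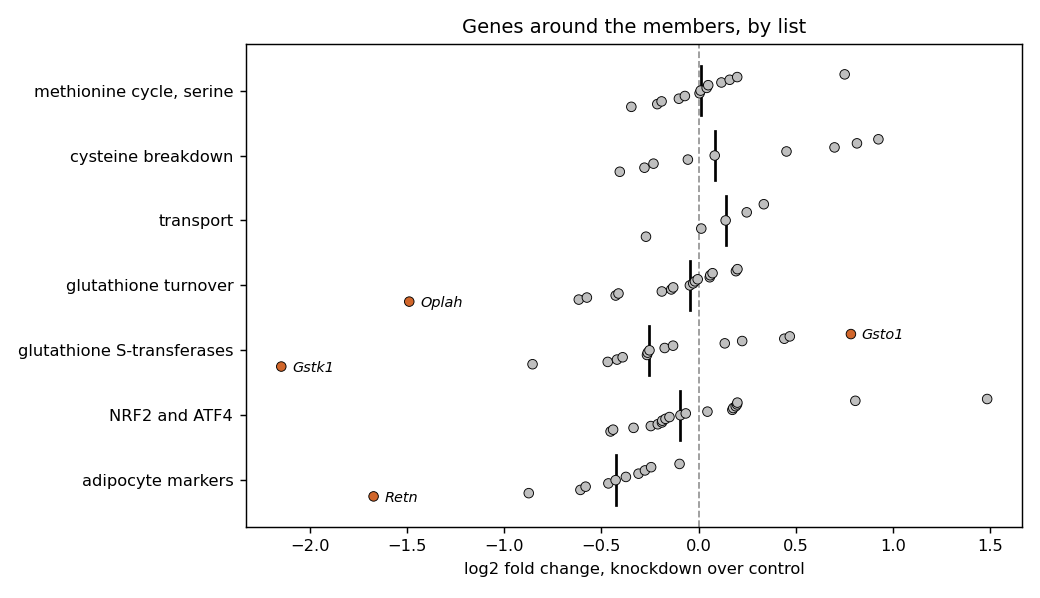
Log2 fold change (knockdown over control, horizontal axis) of every tested gene of the 6 pathway lists and of the adipocyte markers, 1 point a gene, with the list's median as a black bar and the median of all tested genes as a dashed line. Orange points are called at an adjusted p of 0.1 or less; Oplah, Gstk1 and Retn lie below 0, Gsto1 lies above, and all 11 adipocyte markers lie below 0.

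Markers of the labelled cell type were present in both groups. The 12 adipocyte markers summed to 22309 to 25499 CPM in the controls and 11782 to 20702 CPM in the knockdown, and 11 of 11 tested were below 0, with a median log2 fold change of -0.43. Retn was called by edgeR (log2 fold change -1.67, adjusted p = 0.0967), a call that held in 7 of 21 alternatives and was lost without any one library other than knockdown replicate 1. DESeq2 called Retn, Lpl and Plin4. Without overlap, 4 of the 11 were lower in every knockdown library, against 9.55% of all tested genes. They were Retn, Lpl (log2 fold change -0.87), Cebpa (-0.61) and Plin4 (-0.58). Adipoq was at 2163, 2109 and 2649 CPM in the controls and 2493, 1056 and 2296 in the knockdown, Plin1 at 645, 581 and 551 against 562, 348 and 412, and Fabp4 at 2386, 4203 and 3220 against 2527, 2127 and 2459. These 3 overlapped between the groups. For each 1000 CPM of summed adipocyte markers, Cdo1 was at 8.81, 10.8 and 8.76 CPM in the controls and at 4.77, 6.21 and 4.52 CPM in the knockdown, without overlap. Lpl, lipoprotein lipase, made up 41.1% to 56.9% of the sum. Without it the other 11 markers summed to 10034, 11840 and 10987 CPM in the controls and 10493, 6432 and 8027 CPM in the knockdown, so that knockdown replicate 1 lay within the controls. For each 1000 CPM of that sum, Cdo1 was at 19.6, 21.8 and 20.3 CPM in the controls and at 9.41, 11.4 and 7.67 CPM in the knockdown. In bulk RNA, fewer adipocytes and less Cdo1 RNA in each adipocyte cannot be told apart. By other assays, the study reported equal lipid content of the lines in oil red O staining. It also reported unchanged PPARγ and adiponectin, with C/EBPα, HSL and ATGL protein reduced.

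Knockdown replicate 1 had the adipocyte sum nearest to the controls, 20702 CPM, and the highest Cdo1 of the knockdown group. The 11 markers of undifferentiated fibroblasts summed to 8385 to 10408 CPM in the controls and to 5749 to 11186 CPM in the knockdown, lowest in that same library, where Acta2 was at 5.89 CPM against 78.4 to 298 CPM in the others. Of 10 tested, edgeR called Zfp423 (log2 fold change -0.86, adjusted p = 0.0957), DESeq2 called Zfp423 and Pdgfra, and limma-voom called 0. Zfp423, Pdgfra and Dlk1 were lower in every knockdown library, against 9.55% of all tested genes, with log2 fold changes of -0.87 for Pdgfra and -0.84 for Dlk1, while Fn1 and Acta2 had 0.52 each. Of the 10, 6 were below 0, with a median log2 fold change of -0.15. The 8 macrophage and endothelial markers summed to 1.38 to 4.47 CPM in the controls and 2.57 to 4.44 CPM in the knockdown, and Adgre1, Ptprc and Kdr had no count in any library. The part of the adipocyte and fibroblast markers in the difference of Cdo1 was not tested.

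Among 8159 tested genes with a mean of at least 10 CPM, 5 were named for the highest Pearson correlation of log2 CPM with Cdo1 over the 6 libraries. They were Tbl1xr1 (r = 0.997), Dlc1 (r = 0.997), Xrcc3 (r = 0.993), Adam12 (r = 0.989) and 4932438A13Rik (r = 0.989), on chromosomes 3, 8, 12, 7 and 3. Tbl1xr1 and 4932438A13Rik lie before 50 Mb on chromosome 3, in the stretch where 82 of 91 tested genes were below 0. What part that stretch has in their values was not tested. The 6 points share their libraries and scaling and hold the group difference that Cdo1 was selected on, and all 5 genes were lower in every knockdown library, so the likeness is a description. The log2 fold changes of these genes ran from -0.91 for Adam12 to -0.57 for Dlc1, against -1.54 for Cdo1.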

How the data were processed

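RNA from 3 scrambled control and 3 RBMS1 knockdown cultures was sequenced from stranded, ribosomal RNA-depleted libraries. The authors used Trim Galore 0.6.7 for trimming, STAR 2.7.10a for alignment to GRCm38 and Salmon 1.9.0 for gene-level values. The deposited values are estimated counts without normalization, 3.97% to 7.78% of which were not whole in a library. The annotation release, the strand setting and the summing of transcripts are not given in the sources used here.

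Groups were taken from the sample titles. After rounding, edgeR 4.0.16 in R 4.3.3 (glmQLFit and glmQLFTest after filterByExpr and TMM, group as the only term) was applied to 11440 genes, with Benjamini-Hochberg adjustment and calls at 0.1. The study's methods used DESeq2, which is an alternative here (1.42.0), as are limma-voom (3.58.1), other scalings and filters, offsets and left-out libraries. The standard error is the log2 fold change over the root of the F statistic. Shallower libraries, above all control replicate 2, give less precise values, and 26300 genes had no count. The 2 within-library ratios were tested by exact permutation with a prior of 0.5 counts. Positions and exon lengths came from GENCODE on GRCm38, which held 11402 of the tested genes, and promoter sequences from RefSeq. The code was tested on simulated data.

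The 9 genes, the 6 pathway lists and the 3 marker lists were chosen with earlier results of these data known. Named genes were all 9, Rbms1, the called and the 3 most abundant genes of each pathway list, Adipoq, Plin1 and Fabp4, the 5 genes most like Cdo1, and 3 tested neighbours on each side of Slc7a11. Retn, Lpl, Cebpa, Plin4, Zfp423, Pdgfra, Dlk1, Fn1, Acta2 and the genes with no count named among the markers fall outside this rule. So do Gstm1, Atf3, Nfe2l2, Atf4, Ado, Got1 and Ethe1, and all of these were picked with their values in view. Zfp740, Gm44981, Gm6061, Gm17494, Acss2, Gssos1, Gssos2 and Gstp2 are named only because they share exons or sequence with a named gene. The proteomic data of the study are not analysed here.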

Additional observations from a re-analysis of the deposited data

How the results depend on the processing

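Cdo1 was lower under each of 21 alternatives, with log2 fold changes from -1.74 to -1.14. As the set was selected on Cdo1, these are descriptions. Leaving out 1 library gave -1.74 to -1.39, and without control replicate 2 it was -1.43. The number of the 9 genes past the threshold, 0 to 2 with 1 library left out, includes the selected gene and is no test of it. Beside Cdo1, Cth passed without knockdown replicate 1 and the other genes in no alternative. The number of all genes called was 430 with DESeq2, 268 without a filter on low counts, 71 or 70 with chromosome medians removed (chromosome 3 parted at 50 or 55 Mb, and 71 with genes placed by their centre), and 12 to 696 with 1 library left out, 12 without control replicate 2 and 696 without knockdown replicate 1.

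Without TMM factors the median of all genes moved to 0.37 and 42 of 126 called genes were lower, against 104 of 140. Csad was then at 0.12 and Slc6a6 at 0.26, and Gclc, Gclm and Gss at 0.53, 0.57 and 0.46. Gss was at -0.058 without control replicate 3 and at -0.14 without knockdown replicate 1, Slc6a6 at 0.052 without knockdown replicate 2, and the log2 ratio of Gclc to Gclm differed by 0.057 without knockdown replicate 3. With 1 library left out Gss ranged from -0.14 to 0.19 and Slc6a6 from -0.27 to 0.052. The ratio ranged from -0.13 to 0.057 with 1 library left out, and that of Slc7a11 to Slc3a2 from -1.70 to -0.51. The cause of these changes was not tested. No other direction of the 8 tested genes changed.

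Oplah and Gstk1 were called in 17 of 21 alternatives each, Gsto1 in 11, and Retn and Zfp423 in 7 each, the last 2 lost without any one library other than knockdown replicate 1. With Spearman in place of Pearson, 45 genes tied with Cdo1 at a correlation of 1. Deviations of same-numbered libraries correlated at -0.14, 0.078 and -0.028, so the numbers were not taken to pair the libraries. The fit with a replicate block called 39 genes, and 51 with the trends with GC content and length removed as well. The earlier quasi-likelihood estimate of edgeR, which called 122 genes, and the placing of genes by their centre were chosen after seeing the data. Slc7a11 rests on 4 to 81 counts a library.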

Other observations

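In the list of cysteine breakdown, 3 genes were higher in every knockdown library than in every control, against 8.96% of all tested genes. EdgeR called 0 of the 3 and DESeq2 called Got1 (adjusted p = 0.0594). Got1, the cytosolic aspartate aminotransferase, which can also transaminate cysteine sulfinate, was at 17.2, 11.4 and 13.2 CPM in the controls and at 31.3, 27.5 and 21.4 CPM in the knockdown. The difference was 0.92 on the log2 scale (standard error 0.23, adjusted p = 0.133 in the quasi-likelihood test of edgeR, Benjamini-Hochberg adjusted). Ado, the cysteamine dioxygenase that feeds hypotaurine from another source than Cdo1, was at 20.4, 23.8 and 24.6 CPM against 38.8, 30.0 and 25.3 CPM, with a log2 fold change of 0.45 (adjusted p = 0.407). Ethe1, the mitochondrial persulfide dioxygenase, was at 4.17, 3.47 and 3.96 CPM against 7.19, 6.31 and 5.65 CPM, with a log2 fold change of 0.70 (adjusted p = 0.377).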
